A study of Mus musculus with 8 samples.

Results

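Messenger RNA of WD40 repeat genes was followed in mouse E14 embryonic stem cells, an established pluripotent line, after knockdown of Cct5 or Cct7. Members were the protein-coding genes whose symbol in a GENCODE annotation of GRCm38 starts with Wdr, Fbxw or Gnb and the matching digit, a rule that looked at names and not at values. The rule found 93 genes, against 19896 gene IDs present in both deposited tables. Of the 93, 77 were in both tables, 15 were in neither (14 of them Fbxw genes, and Wdr49), and 1 was in the Cct5 table only (Gnb3, listed at 0.05 to 0.12 FPKM). A mean of at least 1 scaled FPKM was needed for a test, and 66 members reached it in every comparison. The other 11 members of both tables were too low to test, namely Fbxw10, Wdr5b, Wdr20rt, Wdr27, Wdr54, Wdr63, Wdr64, Wdr66, Wdr72, Wdr78 and Wdr95. Of these, 6 were under 1 FPKM in all 8 libraries. Wdr83os meets the rule by its symbol but is named for lying opposite Wdr83, with which it shares 52.3% of its exonic bases, and is not a WD40 protein.

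The 8 libraries form 4 groups of 2. Cct5 KD and Cct7 KD cells carry a pLKO-Tet-on vector with a short hairpin RNA against the named gene, and Cct5 KD Ctr and Cct7 KD Ctr cells carry the vector with no hairpin against either. All 4 groups were selected in puromycin (0.5 µg/ml, 14 days) and induced with doxycycline (2 µg/ml, 2 days) in serum and LIF, so the controls share the drug, the selection and the induction. Positive clones were picked, and the sources used here do not say how many clones a group holds. Nothing says that replicates are separate cultures, so each p-value measures only the spread between these libraries, which may be technical. In RNA from bulk cells, fewer cells of a type and less RNA per cell cannot be told apart.

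The WD40 repeat folds into a closed ring of blades, the beta-propeller, that serves as a docking platform in large complexes. Many beta-propellers cannot close unaided and are folded in the chamber of CCT (also called TRiC), the cytosolic chaperonin whose rings are built from related subunits, the Cct5 and Cct7 products among them. The best studied cases are the G protein beta subunits, which CCT folds and the cochaperone PhLP1 (gene Pdcl) then releases to join a gamma subunit. Transcripts report only on RNA, and the amount or folding of the proteins was not measured.

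Values are scaled FPKM: the deposited fragments scaled to transcript length and library size, divided by a median-of-ratios factor so that the typical gene has the same level in knockdown and control. Changes are differences of log2(scaled FPKM + 1), knockdown minus control, from limma, a scale that understates the change of low genes. A transcript is said to have risen or fallen when its Benjamini-Hochberg adjusted p over all tested genes was under 0.05. With 2 libraries a group and little spread between them, small changes pass, so counts are to be read beside the share of all genes that passed. The factor matters: without it the median gene moved by 0.15 in Cct7 KD and by 0.68 in Cct5 KD, and with it by -0.07 and -0.06. In the remainder described below, the unscaled median gene was at -1.15, so nearly all values there are lower on unscaled FPKM.

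The targeted genes were low in the libraries named for them. Cct7 was at 12.1 and 14.9 in Cct7 KD against 269 and 280 in its control. Cct5 was at 40.03 and 41.13 in Cct5 KD against 368 and 367 in its control. The Cct5 KD values are not independent of Cct7 KD: in the deposited tables each is 9/8 of the same-numbered Cct7 KD value plus a remainder, which is negative for 15 IDs, none of them a member. This multiple made up 71.3% of the Cct5 KD total, and among the 77 members it ran from 51.0% (Wdr93) to 94.6% (Wdr81), with a median of 76.4%. The remainder was therefore tested against Cct5 KD Ctr in its own right. The sources used here do not say what it represents. Cct7 stood at 732 and 722 in the remainder against 278 and 277 in Cct5 KD Ctr, and Cct5 is among the IDs where it is negative, so the remainder cannot be checked as a Cct5 knockdown. Cct5 KD, Cct7 KD and the remainder are given side by side and are not separate evidence of a direction.

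Depth is not stated in the files. For genes with a single transcript, at least 99.1% of low values in 6 libraries were whole multiples of a step, which places these libraries at 18.9 M to 54.9 M fragments, so that 1 fragment on 1 kb is worth 0.0182 to 0.053 FPKM. The Cct5 KD libraries showed no such step (68.6% and 50.2%), while their remainders did (99.0% and 99.1%). Among marker lists, the summed scaled FPKM of 8 embryonic stem cell markers was 853 in both Cct7 KD libraries against 4487 to 4707 in their control. It was 1265 to 1274 in Cct5 KD against 4612 to 4656, and 2871 to 2908 in the remainder, with no marker at 0. The remainder sum was carried mostly by Dppa5a (1871 and 1856), which did not pass there (-0.04). The 7 other markers fell in the remainder, from -0.21 (Pou5f1) to -3.62 (Zfp42), with Sox2 at -2.59 and Nanog at -2.57. The sum of 4 germ cell markers was 815 to 838 against 49.07 to 49.97 in Cct7 KD, and 553 to 557 in the remainder against 45.8 to 48.1. In Cct7 KD the 5 measured feeder fibroblast markers of 9 summed to 10.1 to 10.6 against 10.3 to 11.1. This sum hides opposite changes in the 2 of them that were tested, a fall of Thy1 (-0.85) and a rise of Pdgfrb (1.22). The 6 primitive endoderm markers summed to 4.94 to 5.31 against 2.25 to 2.33 in Cct7 KD. The 8 trophoblast markers summed to 185 to 186 against 54.6 to 55.1 in Cct7 KD, a sum carried by the keratins Krt8 (3.17) and Krt18 (2.33), while Tfap2c and Eomes fell (-1.43 and -0.48). In the remainder Krt8 and Krt18 fell (-0.33 and -0.48), and the 7 measured markers summed to 28.2 to 28.5 against 51.1 to 51.9. The part of these shifts in the WD40 changes below was not tested.

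The results turn on a rise of G beta transcripts and a fall of ribosome biogenesis transcripts, so stretches upstream of their starts are shown for Gnb1 and for Wdr75 and Wdr46, the last of which moved most in the remainder. The sequences are from RefSeq on GRCm38.p6, read 5′ to 3′ on the gene's strand, and bases that an annotated exon covers were left out. Capitals mark matches on either strand to CACGTG (E-box), GGGCGG (GC box), CCAAT or CCGGAA (ETS core).
Gnb1, chr4:155491111-155491360, plus strand: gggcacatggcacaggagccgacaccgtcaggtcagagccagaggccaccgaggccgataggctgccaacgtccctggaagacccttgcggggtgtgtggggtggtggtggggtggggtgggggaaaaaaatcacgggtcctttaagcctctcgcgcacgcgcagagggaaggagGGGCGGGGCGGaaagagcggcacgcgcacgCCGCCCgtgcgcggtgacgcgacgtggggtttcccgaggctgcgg
Wdr75, chr1:45794916-45795165, plus strand: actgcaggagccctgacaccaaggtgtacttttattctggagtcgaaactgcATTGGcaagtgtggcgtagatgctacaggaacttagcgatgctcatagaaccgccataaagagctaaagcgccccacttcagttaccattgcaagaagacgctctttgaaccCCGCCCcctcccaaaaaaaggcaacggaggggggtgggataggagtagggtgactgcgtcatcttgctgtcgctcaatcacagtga
Wdr46, chr17:33940473-33940659, plus strand: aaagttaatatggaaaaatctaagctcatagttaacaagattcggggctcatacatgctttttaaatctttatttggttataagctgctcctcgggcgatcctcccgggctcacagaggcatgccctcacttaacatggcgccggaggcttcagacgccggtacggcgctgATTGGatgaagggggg
The Gnb1 stretch holds 3 GC boxes, 2 of them overlapping, starting 75, 70 and 45 bases before the RefSeq start. Wdr75 has a CCAAT match 198 bases and a GC box 86 bases before its start. Wdr46 has a CCAAT match 79 bases before its RefSeq start. That distance includes the exon-covered bases left out at the end of its printed stretch. Windows of 250 upstream bases were found for 55 of the 66 tested members. A GC box occurred in 60% of these 55 windows against 32.7% of all 32851 promoter windows, an ETS core in 30.9% against 12.0%, an E-box in 10.9% against 6.02%, and CCAAT in 32.7% against 33.8%. Of the 8 ribosome biogenesis windows, 6 held a GC box, 4 a CCAAT, 2 an ETS core and 1 an E-box. Of the 3 G beta windows, 1 held a GC box and none the other motifs. The sets are unlike: each member gave 1 window, nearest its annotated start, and had passed the expression filter. All windows include genes with several starts and genes not tested here, so the higher shares are not read as a trait of WD40 genes. These are matches of letters only, and the share of windows is a description.

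In Cct7 KD the WD40 transcripts moved about as often as other genes, and after median-of-ratios scaling more of them went down than up. Of 66 tested members 57 passed (86.4%), beside 81.4% of all 13321 genes tested. Of these 21 rose and 36 fell, that is 31.8% and 54.5% of the members against 37% and 44.4% of all genes. This order turned under the other scalings, with 27 higher and 24 lower on unscaled FPKM and 29 higher and 22 lower after scaling to a common total. All genes turned as well, with 6702 of 13588 higher and 4353 lower unscaled, and 7180 of 13657 and 3986 with a common total. Under these scalings the member medians of 0.02 and 0.08 lay below those of all genes, 0.15 and 0.21. After median-of-ratios scaling the median change was -0.24 for the members and -0.07 for all genes, and single members ranged from -1.45 to 1.66. A fold of at least 2 was reached by 2 members upward and 8 downward (19.5% of all genes in either direction). Leaving out the 10 ribosome biogenesis genes, a choice made after their values were seen, 21 of 56 rose, 26 fell and the median was -0.05. The tested members were more abundant than the typical gene, with a median control level of 13.7 against 8.79 scaled FPKM.

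In Cct5 KD 20 members rose and 34 fell, beside 37.6% and 44.9% of all genes (30 and 26 with a common total, 48 and 14 unscaled). That is 54 of 66 or 81.8% beside 82.5% of all 13235 genes tested, with a median of -0.18 against -0.06. In the remainder 24 rose and 33 fell, beside 41.1% and 42.1% of all genes. That is 57 of 66 or 86.4% beside 83.2% of all 12993 genes tested, with a median of -0.14 against -0.01. A fold of at least 2 was reached by 12 members in Cct5 KD (16.3% of all genes) and by 15 in the remainder (19.7%). Set side by side, 25 members fell and 11 rose in both Cct7 KD and the remainder, 8 fell in Cct7 KD and rose in the remainder, and 5 rose in Cct7 KD and fell in the remainder. Another 16 passed in only Cct7 KD or only the remainder, and 1 member (Fbxw9) in neither. These pairs of calls were not counted over all genes, so they are not read as particular to the members. The sign of the median depended on scaling: it was 0.02 in Cct7 KD and 0.54 in Cct5 KD on unscaled FPKM, 0.08 and 0.01 after scaling to a common total, and -1.26 and -0.29 in the remainder under the same settings. In the same order the medians of all genes were 0.15 and 0.68, 0.21 and 0.15, and -1.15 and -0.16, each above that of the members.

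**Figure D1:**
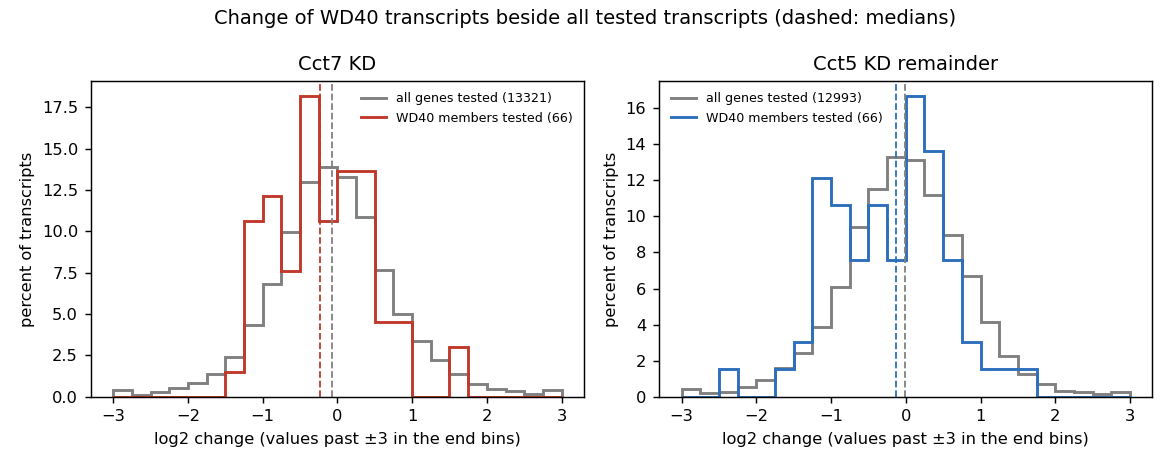
Distribution of log2 changes of scaled FPKM + 1 (x axis) as the percent of transcripts per bin (y axis) for the 66 tested WD40 members and for all tested genes, in Cct7 KD and in the Cct5 KD remainder, with dashed lines at the medians. The member medians of -0.24 and -0.14 lie to the left of the medians of all genes, -0.07 and -0.01, and the bulk of both distributions overlaps. On unscaled FPKM the Cct7 KD medians are 0.02 for the members and 0.15 for all genes.

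The WD40 proteins outside the symbol rule, such as Rack1 of the ribosome, are set beside the members here. Of 128 tested in Cct7 KD, 36 rose and 78 fell (28.1% and 60.9%, beside 37% and 44.4% of all genes), with a median of -0.22 against -0.07. In the remainder 32 of 125 rose and 73 fell (25.6% and 58.4%, beside 41.1% and 42.1%), with a median of -0.22 against -0.01. In Cct7 KD this split became 53 and 54 on unscaled FPKM and 61 and 46 with a common total. The list medians there were 0.02 and 0.08, against 0.15 and 0.21 for all genes. Gemin5, which binds small nuclear RNAs for the SMN complex, fell by 1.67 (16.2 and 15.8 against 53.0 and 52.8) and Tle3, a corepressor, fell by 1.77 (7.80 and 8.11 against 29.9 and 29.2). Eml3, a microtubule binder, rose by 1.19 and Dcaf10, a receptor of the CUL4 ligase, by 1.01. In the remainder Gemin5 fell by 2.15 and Tle3 by 1.09, Eml3 rose by 0.56 and Dcaf10 did not pass (0.01). This list was written for the present work with earlier results of these data known. It holds ribosome biogenesis factors, Bop1 among them, and its counts without such factors were not taken.

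**Figure D2:**
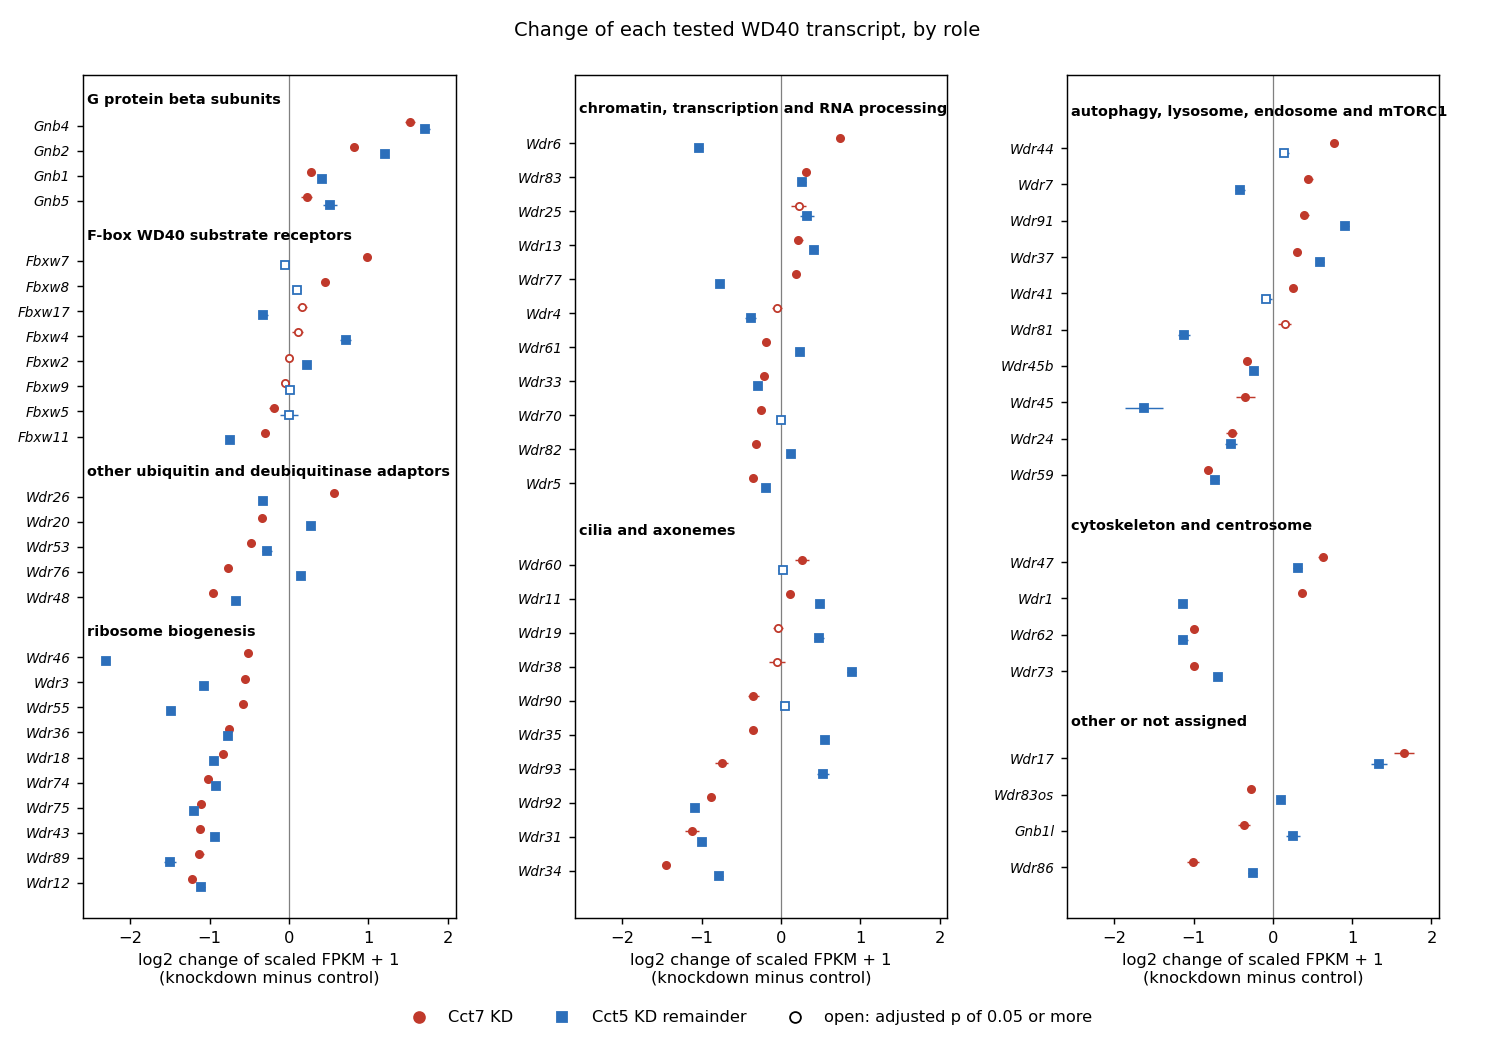
Log2 change of scaled FPKM + 1, knockdown minus control (x axis), for each of the 66 tested WD40 transcripts, grouped by role, in Cct7 KD (circles) and in the Cct5 KD remainder (squares), with bars of 1 SE and open symbols where the adjusted p was 0.05 or more. All 4 G beta subunits lie right of 0 and all 10 ribosome biogenesis genes left of 0 in both comparisons. The remaining roles hold members on both sides. On unscaled FPKM 3 of the 4 G beta values of the remainder turn negative, where the median of all genes is -1.15.

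All 4 tested G protein beta subunits rose in Cct7 KD, in Cct5 KD and in the remainder. These proteins pair with gamma subunits and carry signals from G protein coupled receptors to channels and enzymes. Their median change was 0.55 in Cct7 KD, 0.60 in Cct5 KD and 0.87 in the remainder, beside medians of -0.07, -0.06 and -0.01 over all genes, of which 37%, 37.6% and 41.1% rose. The 4 rises in Cct7 KD and Cct5 KD also passed unscaled and scaled to a common total. In the remainder on unscaled FPKM Gnb1, Gnb2 and Gnb5 were lower (-0.94, -0.11 and -0.58) and Gnb4 alone was higher. There 10904 of 11963 tested genes were lower and the median gene was at -1.15, below each of these values.

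Gnb1, the most abundant of them (chr4:155491361-155559269 on GRCm38), was at 123 and 121 scaled FPKM in Cct7 KD and 98.1 and 102 in its control. In the remainder it stood at 130 and 134 against 97.7 and 99.1 in Cct5 KD Ctr. The groups did not overlap, and the share of all genes without overlap was not counted. The change was 0.28 (SE 0.0312, adjusted p = 0.00044) in Cct7 KD, 0.29 in Cct5 KD and 0.42 in the remainder. That is a 1.22-fold rise in Cct7 KD and 1.34-fold in the remainder.

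Gnb2 (chr5:137528127-137533510) was at 35.9 and 36.4 in Cct7 KD and 20.8 and 19.4 in its control. Its remainder values were 46.1 and 45.9 against 18.7 and 19.9. Both Cct7 KD values lay above their controls, and so did both remainder values, which are computed and are not libraries. The share of all genes without such overlap was not counted. The change was 0.82 (SE 0.0414, adjusted p = 2.2e-05) in Cct7 KD, 0.92 in Cct5 KD and 1.21 in the remainder.

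Gnb4 (chr3:32580332-32616585), scarce in the controls at 1.38 to 1.49, was at 6.12 and 5.89 in Cct7 KD and 7.00 and 6.99 in the remainder. The rise was 4.17-fold in Cct7 KD (log2 change 1.52, SE 0.0637, adjusted p = 1.2e-05) and 4.87-fold in the remainder (1.71). Gnb5 (chr9:75306288-75345876), the beta subunit that pairs with RGS proteins in place of a gamma subunit, was at 5.51 and 4.94 in Cct7 KD and 4.41 and 4.24 in its control. Its change was 0.22 (SE 0.0683, adjusted p = 0.026), and this call was lost without Cct7 KD 1, Cct7 KD Ctr 1 or Cct7 KD Ctr 2 (adjusted p = 0.13, 0.061 and 0.11). In the remainder Gnb5 was at 5.96 and 7.19 against 4.28 in both controls, a rise of 0.52.

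By control level the order was Gnb1, Gnb2, Gnb5 and Gnb4, and no neighbours in it overlapped. In Cct7 KD Gnb4 stood above Gnb5 in both libraries, and in the remainder their values overlapped. The rises differed in size between Cct7 KD and the remainder for Gnb2 (0.38, 95% interval 0.25 to 0.52, adjusted p = 0.00058) and Gnb1 (0.12, adjusted p = 0.023, lost when any of 5 libraries was left out, with adjusted p = 0.051 to 0.084). For Gnb4 and Gnb5 the difference missed the threshold, with intervals of 0.00 to 0.37 and 0.01 to 0.56, and without Cct5 KD remainder 1 that of Gnb5 passed (0.41, adjusted p = 0.0085). The difference for Gnb1, Gnb2, Gnb4 and Gnb5 is negative on unscaled FPKM (-1.47, -1.18, -1.14 and -1.02) and, after scaling to a common total, at -0.34, -0.07, -0.23 and -0.12. In this contrast 11684 of 12910 tested genes were lower unscaled, and 7843 of 13301 with a common total.

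**Figure D3:**
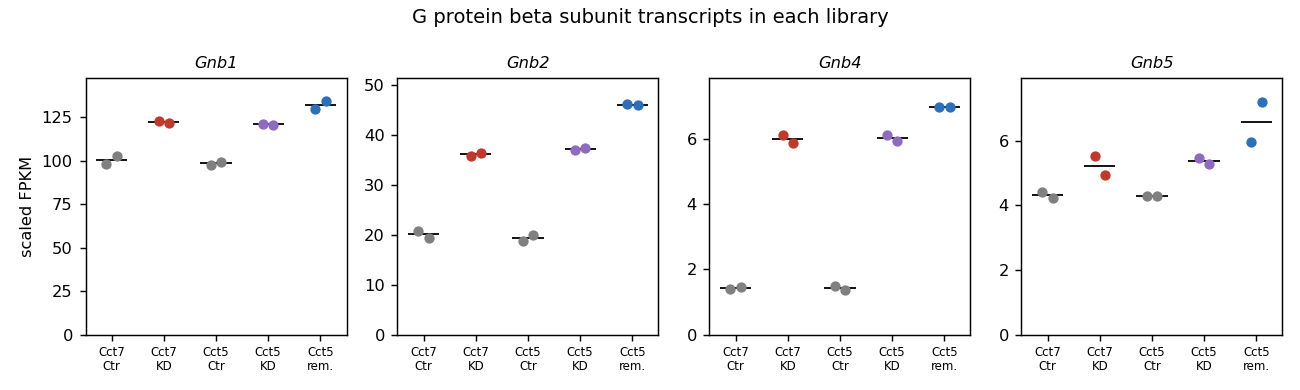
Scaled FPKM (y axis, from 0) of Gnb1, Gnb2, Gnb4 and Gnb5 in each library, with points for the 2 libraries of a group and a line at their mean; the columns are Cct7 KD Ctr, Cct7 KD, Cct5 KD Ctr, Cct5 KD and the Cct5 KD remainder (rem.). The knockdown and remainder points of each gene lie above its control points, from 1.21-fold for Gnb5 to 4.17-fold for Gnb4 in Cct7 KD. On unscaled FPKM the remainder of Gnb1, Gnb2 and Gnb5 lies below the control, where the median log2 change of all genes is -1.15.

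Of the gamma and alpha subunits and the RGS partners, 12 of 21 tested rose and 3 fell in Cct7 KD (57.1% and 14.3%, beside 37% and 44.4% of all genes), with a median of 0.32 against -0.07. In the remainder 14 of 22 rose and 6 fell (63.6% and 27.3%, beside 41.1% and 42.1%), with a median of 0.32 against -0.01. On unscaled FPKM 3 of 19 were higher and 16 lower, beside 501 higher and 10904 lower of all 11963 genes tested. Gnas, the stimulatory alpha subunit, rose by 1.27 (75.7 and 73.8 against 29.7 and 31.1) and by 1.54 in the remainder. Gng12, a gamma subunit, rose by 0.97 (15.1 and 14.8 against 7.09 and 7.24) and by 1.09. Gngt2, a gamma subunit of cone photoreceptors, fell by 1.82 (5.70 and 5.51 against 21.8 and 22.9), and in the remainder by 0.36. Gna12 fell by 0.13 in Cct7 KD, a value that turned to 0.16 with a common total.

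A list of CCT subunits, Pdcl, its relatives Pdcl2 and Pdcl3, and subunits of the cochaperone prefoldin (Vbp1 and Pfdn genes) went the other way. In Cct7 KD 17 of 18 fell and none rose (median -0.55), beside 44.4% and 37% of all genes. Outside CCT, only Pdcl of this list is described above as a folding partner of G beta. With a common total 10 fell and 3 rose, and on unscaled FPKM 12 and 1. In that list Cct7 is the target and fell by 4.25, and Cct4 fell by 1.62 (142 and 141 against 433 and 441). Pdcl, whose product releases G beta from CCT, fell by 0.72 (20.8 and 21.4 against 34.8 and 35.8), a gene singled out after its value was seen. In the remainder the list split, with 7 of 17 higher and 9 lower (41.1% and 42.1% of all genes), and Cct4 fell by 0.63 and Pdcl by 0.24. The 7 higher were Cct7, Tcp1, Pdcl2 and the prefoldin genes Vbp1, Pfdn1, Pfdn4 and Pfdn5. In Cct5 KD 17 of 18 fell, the target Cct5 among them, and 1 rose, beside 44.9% and 37.6% of all genes. This turned to 5 lower and 12 higher on unscaled FPKM, and was 11 and 3 with a common total.

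All 10 WD40 genes of ribosome biogenesis were tested, and all 10 fell in Cct7 KD, Cct5 KD and the remainder, beside 44.4%, 44.9% and 42.1% of all genes. Several of their products sit in the small subunit processome that forms on nascent ribosomal RNA, while those of Wdr12, Wdr18 and Wdr74 act in maturation of the large subunit. Median changes were -0.92, -1.07 and -1.09, and 5, 6 and 6 of them reached a fold of at least 2, beside 19.5%, 16.3% and 19.7% of all genes in either direction. The 10 falls held in Cct7 KD without scaling and with a common total, and in Cct5 KD without scaling 8 of the 10 passed. They held in the remainder as well under both settings. On unscaled FPKM 10904 of 11963 tested genes were lower there, so that setting is no check of the fall. On scaled FPKM each gene's knockdown values lay below its controls, and the share of all genes without overlap was not counted. On unscaled FPKM the Cct5 KD values of Wdr3 (45.37 and 46.63 against 45.39 and 44.76) overlapped their controls. Those of Wdr36 did so too (52.57 and 52.86 against 52.27 and 53.5).

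Wdr75 (chr1:45795166-45823619) and Wdr43 (chr17:71615895-71659031) encode subunits that link the processome to transcription of ribosomal DNA and were among the most abundant members. Wdr75 was at 44.5 and 43.4 in Cct7 KD and 95.2 and 96.5 in its control, and at 43.2 and 44.4 in the remainder against 102 in both Cct5 KD Ctr libraries. It thus fell 2.18-fold in the first (log2 change -1.11, SE 0.0275, adjusted p = 3.0e-06) and 2.33-fold in the second (-1.20). Wdr43 was at 43.3 and 42.4 against 92.8 and 95.4, and at 49.3 and 51.3 against 97.3 and 96.4 in the remainder. Its changes were -1.116 and -0.93.

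Of the large-subunit factors, Wdr12, which works with Pes1 and Bop1, was at 7.21 and 6.88 in Cct7 KD and 17.7 and 17.8 in its control. That is a 2.52-fold fall (log2 change -1.22, SE 0.0421, adjusted p = 6.9e-06), and the fall was -1.10 in the remainder. Wdr74 was at 30.0 and 31.5 against 61.0 and 65.5, a fall of 1.016, and fell by 0.92 in the remainder. Wdr89, whose place in the list is the least sure, was at 4.67 and 4.22 against 11.1 and 10.7, a fall of 1.129 in Cct7 KD and of 1.499 in the remainder.

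Wdr46 (chr17:33940660-33949697), a scaffold of the processome, set the extreme of all members in the remainder. It was at 18.0 and 18.1 in Cct7 KD and 26.0 and 26.7 in its control, a fall of 0.52. The remainder was at 5.45 and 5.62 against 31.7 and 31.1, 5.67-fold lower (log2 change -2.31, SE 0.0383, adjusted p = 3.8e-07). Cct5 KD, which mixes the 2 parts, gave 14.8 and 14.9 and a change of -1.03. Wdr55, which takes part in ribosomal RNA processing, fell by 0.58 in Cct7 KD and by 1.49 in the remainder (8.16 and 8.25 against 24.7 and 25.1). The fall of the other 3, Wdr3, Wdr18 and Wdr36, ranged from -0.83 to -0.56 in Cct7 KD and from -1.08 to -0.77 in the remainder.

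**Figure D4:**
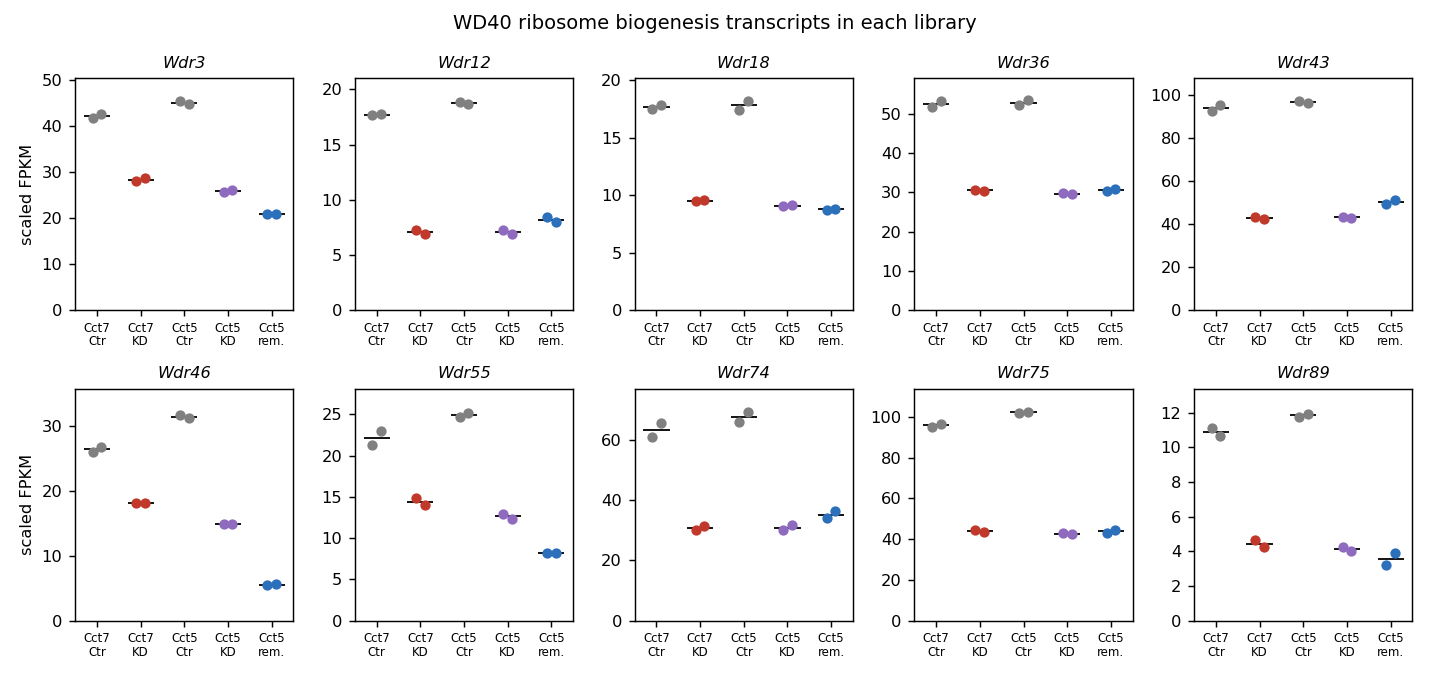
Scaled FPKM (y axis, from 0) of the 10 ribosome biogenesis members in each library, with points for the 2 libraries of a group and a line at their mean; the columns are Cct7 KD Ctr, Cct7 KD, Cct5 KD Ctr, Cct5 KD and the Cct5 KD remainder (rem.). The knockdown points lie below the control points of the same table for each gene, and the remainder of Wdr46 is 5.67-fold below its control.

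The F-box members, which choose substrates for SCF ubiquitin ligases, showed no common direction. Of 23 annotated, 8 were tested; 2 rose and 2 fell in Cct7 KD (median 0.06), and 2 rose and 2 fell in the remainder (0.01). That is 50% of the tested F-box members in either comparison, beside 81.4% and 83.2% of all genes. In Cct7 KD 6 rose and none fell under both other scalings. Fbxw7 (chr3:84815268-84979198), the receptor that marks cyclin E and Myc for destruction, was at 16.4 and 15.7 in Cct7 KD and 7.58 and 7.57 in its control, a 2.11-fold rise (log2 change 0.99, SE 0.042, adjusted p = 1.2e-05). Its remainder was at 8.05 and 7.70 against 8.25 and 8.11, and the change of -0.05 did not pass (95% interval -0.17 to 0.07). The Cct5 KD rise of 0.69 thus stood beside 87.6% of its value being the multiple of Cct7 KD. Fbxw11, a receptor for beta-catenin, was at 25.6 and 26.0 against 32.4 and 31.6, a fall of 0.30 in Cct7 KD, and at 18.8 and 18.7 against 31.6 and 32.5 in the remainder, a fall of 0.74. The Cct7 KD fall of Fbxw11 did not pass under either other scaling (-0.06 unscaled, 0.00 with a common total). Fbxw4 did not pass in Cct7 KD (0.11) and rose by 0.71 in the remainder. The other 5, Fbxw2, Fbxw5, Fbxw8, Fbxw9 and Fbxw17, ranged from -0.19 to 0.45 in Cct7 KD and from -0.33 to 0.23 in the remainder.

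The core of the SCF ligase, which these receptors plug into, was also split, with 3 of 7 higher and 3 lower in Cct7 KD (37% and 44.4% of all genes) and 2 higher and 5 lower in the remainder (41.1% and 42.1%). Skp1a, the adaptor that holds the F-box, fell by 0.89 (199 and 187 against 357 and 361), and Cks1b fell by 0.57. Cul1, the scaffold, rose by 0.48 and fell by 0.79 in the remainder, and Rbx1, the RING subunit, rose by 0.36 and by 0.67.

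Other members act as adaptors of ubiquitin ligases or deubiquitinases, and of 5 tested 1 rose and 4 fell in Cct7 KD (median -0.48), beside 37% and 44.4% of all genes. Wdr26, a subunit of the CTLH ligase, was at 48.7 and 47.5 against 32.5 and 31.8 and rose by 0.57. Its remainder was at 25.9 and 24.4 against 32.4 and 31.5 and fell by 0.33. Wdr76, a chromatin protein of the DNA damage response, went the opposite way, at 20.2 and 19.6 against 34.7 and 34.5 in Cct7 KD (-0.77) and 36.7 and 36.4 against 33.2 and 32.6 in the remainder (0.15). The remainder value of Wdr76 is -0.01 after scaling to a common total and -1.17 unscaled. The other 3 of the 5, Wdr20, Wdr48 and Wdr53, ranged from -0.96 to -0.33 in Cct7 KD and from -0.66 to 0.28 in the remainder.

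Of 11 tested members in chromatin, transcription and RNA processing, 4 rose and 5 fell in Cct7 KD (median -0.05), and 5 rose and 5 fell in the remainder (0.00). Of all genes 37% rose and 44.4% fell in the first, and 41.1% and 42.1% in the second. With a common total the Cct7 KD split was 6 higher and none lower (median 0.21), and on unscaled FPKM 5 and 1. Wdr5, the scaffold of the histone H3 lysine methyltransferases of the MLL family, was at 65.3 and 64.1 in Cct7 KD and 81.5 and 83.8 in its control, a fall of 0.35, and fell by 0.19 in the remainder. With a common total the Cct7 KD change of Wdr5 was -0.04 and did not pass. Wdr82, of the SET1 methyltransferase, was at 34.3 and 34.7 against 43.5 and 42.7, a fall of 0.31 that did not pass under either other scaling (-0.07 unscaled, -0.01 with a common total). It was at 48.2 and 48.8 against 44.4 and 44.1 in the remainder, a rise of 0.13 that turned to -0.03 with a common total. Wdr61, of the PAF1 and SKI complexes, fell by 0.19 in Cct7 KD and rose by 0.25 in the remainder. The fall of Wdr61 was lost without Cct7 KD 2 or Cct7 KD Ctr 2 (adjusted p = 0.10 and 0.054), turned positive under both other scalings (0.06 and 0.12), and 33.9% of its exonic bases are shared with Dnaja4 on the opposite strand.

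Wdr77, the partner of the arginine methyltransferase Prmt5, was at 32.1 and 31.9 in Cct7 KD and 27.7 and 28.2 in its control, a rise of 0.19, and at 16.8 and 17.7 against 30.3 and 29.7 in the remainder, a fall of 0.77. Wdr6 (chr9:108572311-108578739), which helps methylate tRNA, showed the widest such split in this role. It was at 28.3 and 28.7 against 16.9 and 16.2 in Cct7 KD, a 1.72-fold rise (log2 change 0.75, SE 0.0353, adjusted p = 1.7e-05). In the remainder it was at 8.63 and 8.01 against 17.5 and 18.6, a 2.17-fold fall (-1.03, SE 0.0533, adjusted p = 9.8e-06). Both directions of Wdr6 held under both other scalings. On unscaled FPKM 10904 of 11963 tested genes were lower in the remainder, so that setting is no check of its fall. The other members of this role ranged from -0.26 to 0.32 in Cct7 KD and from -0.38 to 0.42 in the remainder.

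Of 10 tested members of cilia and axonemes, 2 rose and 6 fell in Cct7 KD (median -0.35), while 5 rose and 3 fell in the remainder (0.26). The shares of all genes were 37% and 44.4% in the first and 41.1% and 42.1% in the second. The 2 rises in Cct7 KD, of Wdr11 and Wdr60, were lost when single libraries were left out: neither passed without Cct7 KD 1, Cct7 KD 2 or Cct7 KD Ctr 1 (adjusted p = 0.06 to 0.12), and Wdr11 did not without Cct7 KD Ctr 2 (0.12). Wdr34 (chr2:30031546-30048881), an intermediate chain of the dynein of intraflagellar transport, showed the largest fall of any tested member in Cct7 KD, at 4.81 and 4.76 against 15.4 and 14.2. This was a 3.10-fold fall (log2 change -1.45, SE 0.0547, adjusted p = 8.6e-06), and the fall was 0.78 in the remainder. Wdr31 was at 5.41 and 5.93 against 14.8 and 12.3 and fell by 1.121, and by 1.00 in the remainder. Wdr35, of the retrograde transport complex, fell by 0.36 in Cct7 KD (19.6 and 19.3 against 25.1 and 25.3; -0.05 and not passing with a common total) and rose by 0.56 in the remainder (35.5 and 34.8 against 23.3 and 23.8). Wdr93 fell by 0.75 and rose by 0.53, at levels of 0.64 to 2.26. Wdr38, which shares 28.6% of its exonic bases with Arpc5l and Rpl35, did not pass in Cct7 KD (-0.05) and rose by 0.89 in the remainder. The other 5, Wdr11, Wdr19, Wdr60, Wdr90 and Wdr92, ranged from -0.88 to 0.26 in Cct7 KD and from -1.08 to 0.50 in the remainder, with Wdr92, a factor of axonemal dynein assembly, at the low end of both.

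Of 10 tested members of autophagy, endosomes, lysosomes and the nutrient sensor mTORC1, 5 rose and 4 fell in Cct7 KD (median 0.20), and 2 rose and 6 fell in the remainder (-0.32). These counts stand beside 37% and 44.4% of all genes in Cct7 KD and 41.1% and 42.1% in the remainder, and in Cct7 KD 6 rose and 2 fell under both other scalings. Wdr44, a Rab11 effector, rose by 0.77 (8.66 and 8.69 against 4.74 and 4.58) and did not pass in the remainder (0.14), except without Cct5 KD remainder 2 (0.19, adjusted p = 0.048). Wdr91, which acts in endosome maturation, rose in both, by 0.39 (12.6 and 12.9 against 9.96 and 9.03) and by 0.91. Wdr37 likewise rose by 0.30 and by 0.60. Wdr45, a lipid-binding propeller of the growing autophagosome, was at 6.91 and 5.28 against 7.61 and 8.36, a fall of 0.35 lost without Cct7 KD 2, Cct7 KD Ctr 1 or Cct7 KD Ctr 2 (adjusted p = 0.12, 0.051 and 0.12) and under both other scalings (0.34 and 0.57). In the remainder its values were 1.25 and 2.74 against 7.11 and 8.82, a fall of 1.62 with a wide SE of 0.239. Wdr45 shares 24.7% of its exonic bases with another annotated gene. The other members of this role ranged from -0.82 to 0.45 in Cct7 KD.

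Of the 4 cytoskeletal members, 2 rose and 2 fell in Cct7 KD and 1 rose and 3 fell in the remainder, beside 37% and 44.4% of all genes in the first and 41.1% and 42.1% in the second. Wdr1 (chr5:38526813-38563221), which disassembles actin filaments with cofilin, was at 29.5 and 27.9 in Cct7 KD and 21.7 and 22.3 in its control, a rise of 0.37 (SE 0.0397, adjusted p = 0.00039). In the remainder it was at 10.8 and 9.89 against 24.1 and 23.9, a fall of 1.14 (SE 0.0488, adjusted p = 4.7e-06). The Cct5 KD values, 24.6 and 23.2 against 24.1 and 23.9, overlapped their control, with a change of -0.01 (95% interval -0.10 to 0.09). Wdr62, a centrosomal protein of neural progenitors, fell in both, by 0.99 (4.63 and 4.35 against 10.03 and 9.83) and by 1.14. Wdr47, a microtubule protein, rose in both, by 0.63 and by 0.31, and Wdr73 fell in both, by 1.00 and 0.70.

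The largest rise of any tested member in Cct7 KD was that of Wdr17 (chr8:54629055-54887184), a member with no assigned role, at 14.2 and 16.1 against 3.53 and 4.77. The rise was 3.65-fold (log2 change 1.66, SE 0.126, adjusted p = 9.8e-05), and 2.97-fold in the remainder (1.34; 0.15 and not passing on unscaled FPKM). Wdr86 was at 1.48 and 1.41 against 4.06 and 3.74 and fell by 1.01. In the remainder it fell by 0.26, a call lost without Cct5 KD Ctr 1 (adjusted p = 0.052). Gnb1l and Wdr83os, the other 2 of this group, were at -0.36 and -0.28 in Cct7 KD and at 0.25 and 0.10 in the remainder. None of these 4 calls passed with a common total (-0.16, 0.02, 0.13 and -0.06), and those in the remainder were also lost without Cct5 KD remainder 1 or Cct5 KD Ctr 1 (adjusted p = 0.061 to 0.21), and that of Wdr83os without Cct5 KD Ctr 2 (0.078).

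The change in the remainder was then set against the change in Cct7 KD in a single fit of both. The remainder has Cct7 KD subtracted from it, so the sides of this contrast are not fully separate measurements. The difference passed for 48 of 66 members (72.7%), beside 73.9% of all 13198 genes tested. It was higher for 26 and lower for 22, beside 38.5% and 35.4% of all genes. The most negative differences were those of Wdr46 (-1.80, SE 0.0444, adjusted p = 1.6e-07), Wdr6 (-1.79) and Wdr1 (-1.52), and the most positive those of Wdr93 (1.27), Wdr38 (0.94) and Wdr76 (0.91). Those 3 negative differences kept their sign and call under both other scalings. Most members were lower there (65 unscaled and 45 with a common total), so a kept negative sign says little. Of the positive, Wdr93 kept its sign and call (0.38 unscaled, 1.03 with a common total), and Wdr38 and Wdr76 turned to -0.38 and -0.64 on unscaled FPKM. For Wdr12, Wdr74 and Wdr36 the difference did not pass, with 95% intervals of -0.03 to 0.24, -0.08 to 0.24 and -0.11 to 0.06. Unscaled FPKM gave 1 higher and 65 lower, and a common total 8 higher and 45 lower, so the split of signs rests on the scaling.

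**Figure D5:**
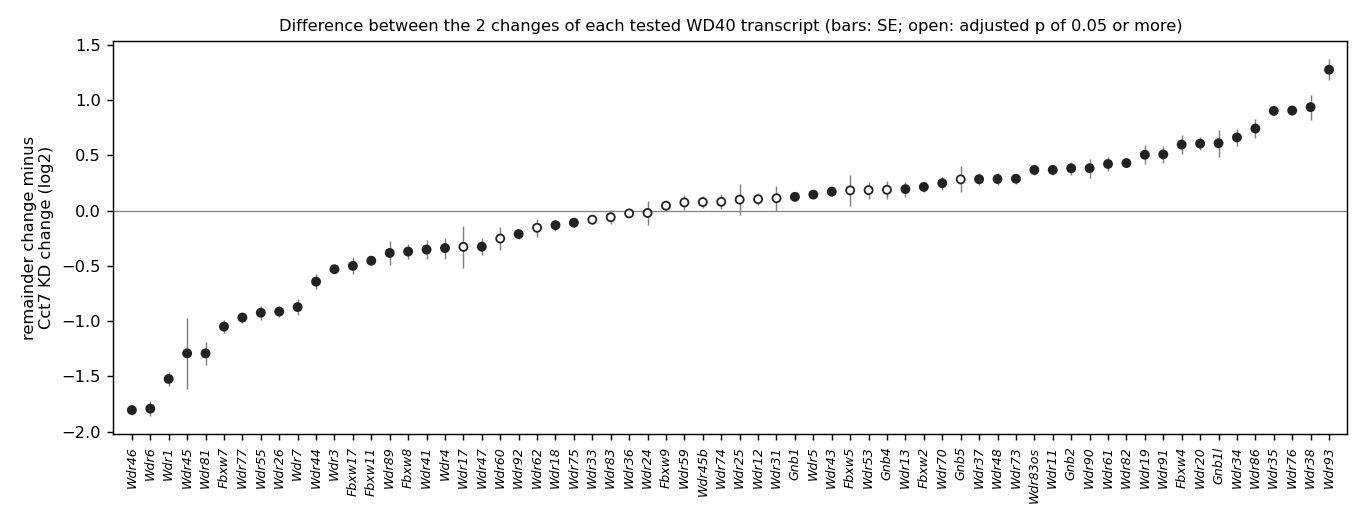
Change in the Cct5 KD remainder minus change in Cct7 KD (y axis, log2 of scaled FPKM + 1) for the 66 tested WD40 members in rank order (x axis), with bars of 1 SE and open points where the adjusted p was 0.05 or more. The values run from -1.80 (Wdr46) to 1.27 (Wdr93), with 22 called below and 26 called above 0. On unscaled FPKM 65 are called below 0, beside 11684 of all 12910 genes tested.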

How the data were processed

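Poly(A) RNA was made into strand-specific (dUTP) libraries and read as 150 bp pairs, per the labels' protocols. The authors deposited FPKM per gene, in a separate table for either knockdown and its control; HTSeq and mm10 are named in the submitters' processing notes, and the aligner, annotation, gene lengths, versions and the use of strand in counting are not named in the sources used here. With no counts deposited for use here, FPKM was tested by limma 3.58.1 in R 4.3.3 (moderated, trend on the mean) on log2(scaled FPKM + 1), for genes with a mean of at least 1 in the fit. Scaling was by the median of ratios within a fit, with control factors at a geometric mean of 1; knockdown factors were 1.19 and 1.20 (Cct7 KD), 1.77 and 1.79 (Cct5 KD) and 0.383 and 0.387 (remainder). Each knockdown was fitted with its own control (4 libraries), and the difference in a fit of 8. The remainder is Cct5 KD minus 9/8 of Cct7 KD of the same number. IDs listed 2 times (8 and 6) were left out, and 41 IDs had no symbol.

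The members and gene lists were chosen with earlier results of these data known. Values are given for a set of members chosen for their roles (Gnb1 to Gnb5, Fbxw7, Fbxw11, Wdr1, Wdr5, Wdr26, Wdr45, Wdr61, Wdr62, Wdr77 and Wdr82), for the 8 largest called rises and falls of each comparison with a mean of at least 2 FPKM and no overlap, and for the 3 largest differences per direction; members beyond these were named after their values were seen. Outside the symbol rule, the 2 largest called rises and falls of each list are named. Fitting was tested on simulated data. Alternatives were no scaling, a common total, no filter, 0.1 as pseudocount, a minimum fold of 2, a replicate block, all 8 libraries in a single fit, the remainder in place of Cct5 KD, and each library left out.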

Additional observations from a re-analysis of the deposited data

Results flagged for a closer look

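For 28 of the 35 tested members named by the rule above, the change in the Cct5 KD remainder differed from that in Cct7 KD. The test was limma's test of the difference (Benjamini-Hochberg adjusted p under 0.05 over all genes tested), which 73.9% of all tested genes passed. The rule partly picks members by their largest changes and differences, so the shares are not alike. Other members named in the text also passed. The remainder was lower relative to its control than Cct7 KD for Wdr46 (-1.80), Wdr6 (-1.79), Wdr1 (-1.52), Wdr45 (-1.29), Fbxw7 (-1.05), Wdr77 (-0.97), Wdr55 (-0.92), Wdr26 (-0.91), Wdr44 (-0.64), Fbxw11 (-0.45), Wdr89 (-0.38), Wdr47 (-0.33) and Wdr75 (-0.11). It was higher for Gnb1 (0.12), Wdr5 (0.15), Wdr43 (0.17), Wdr37 (0.28), Gnb2 (0.38), Wdr61 (0.42), Wdr82 (0.43), Wdr91 (0.51), Fbxw4 (0.60), Wdr34 (0.66), Wdr86 (0.74), Wdr35 (0.90), Wdr76 (0.91), Wdr38 (0.94) and Wdr93 (1.27). Wdr6, Wdr1, Wdr26 and Wdr77 rose in Cct7 KD and fell in the remainder, and Wdr35, Wdr61, Wdr76, Wdr82 and Wdr93 fell and rose. The differences of Gnb1 and Wdr75 were lost when single libraries were left out (adjusted p = 0.051 to 0.084 and 0.057 to 0.12).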

How the results depend on the processing

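Scaling turned the sign of medians and the order of rises and falls. Without scaling, 27 members rose and 24 fell in Cct7 KD, 48 members rose and 14 fell in Cct5 KD, 1 rose and 64 fell in the remainder, and the difference was higher for 1 and lower for 65. With a common total, 29 rose and 22 fell in Cct7 KD and 30 and 26 in Cct5 KD, and the difference was higher for 8 and lower for 45. Without scaling the median member change was 0.021 in Cct7 KD, 0.54 in Cct5 KD, -1.26 in the remainder and -1.34 in the difference; with a common total it was 0.076, 0.0067, -0.29 and -0.34. No filter gave medians of -0.19, -0.14 and -0.081 in Cct7 KD, Cct5 KD and the remainder, and a pseudocount of 0.1 gave -0.23 in Cct5 KD. At a fold of at least 2, 2 members rose and 8 fell in Cct7 KD, 2 and 10 in Cct5 KD, 3 and 12 in the remainder, and the difference was higher for 1 and lower for 6. Over all genes, 4933 rose and 5913 fell in Cct7 KD, against 6702 and 4353 without scaling and 7180 and 3986 with a common total. In Cct5 KD the counts were 4975 and 5941, 11057 and 1605, and 6828 and 4383; in the remainder 5336 and 5472, 501 and 10904, and 4331 and 6408; and in the difference 5081 and 4674, 250 and 11684, and 2532 and 7843.

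Members named by the rule turned sign under scaling as follows (log2 changes), where the value passed in either setting. Over all 66 tested members, passing or not, 7 turned sign in Cct7 KD without scaling and 10 with a common total, 24 and 10 in Cct5 KD, 28 and 8 in the remainder, and 36 and 25 in the difference. In Cct7 KD, without scaling, Wdr61 0.056; with a common total, Fbxw11 0.0038 and Wdr61 0.12. In Cct5 KD, without scaling, Fbxw11 0.37, Wdr1 0.80, Wdr35 0.73, Wdr45 0.15, Wdr5 0.45, Wdr61 0.67, Wdr76 0.30, Wdr77 0.70, Wdr82 0.54 and Wdr93 0.30; with a common total, Wdr1 0.23, Wdr35 0.16, Wdr61 0.098 and Wdr77 0.13. In the remainder, without scaling, Fbxw4 -0.24, Gnb1 -0.94, Gnb2 -0.11, Gnb5 -0.58, Wdr35 -0.76, Wdr37 -0.65, Wdr38 -0.24, Wdr44 -0.90, Wdr47 -0.78, Wdr61 -1.07, Wdr76 -1.17, Wdr82 -1.20, Wdr91 -0.34 and Wdr93 -0.27; with a common total, Wdr76 -0.0101 and Wdr82 -0.032. In the difference, without scaling, Fbxw4 -0.54, Gnb1 -1.47, Gnb2 -1.18, Gnb4 -1.14, Gnb5 -1.02, Wdr12 -1.25, Wdr31 -1.19, Wdr34 -0.67, Wdr35 -0.64, Wdr37 -1.19, Wdr38 -0.38, Wdr43 -1.39, Wdr5 -1.44, Wdr61 -1.121, Wdr74 -1.47, Wdr76 -0.64, Wdr82 -1.134, Wdr86 -0.30 and Wdr91 -0.97. In the difference with a common total, Gnb1 -0.34, Gnb2 -0.075, Gnb4 -0.23, Wdr12 -0.31, Wdr37 -0.16, Wdr43 -0.29, Wdr5 -0.32, Wdr61 -0.0304, Wdr74 -0.37 and Wdr82 -0.027.

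Leaving out 1 library at a time gave 17 to 20 rises and 33 to 35 falls in Cct7 KD (median -0.28 to -0.20), 18 to 20 and 30 to 36 in Cct5 KD (-0.20 to -0.16), 21 to 24 and 32 to 33 in the remainder (-0.18 to -0.12), and 24 to 26 higher and 20 to 23 lower differences (0.071 to 0.13). Where this leaves a group with 1 library, that library is assumed to vary like the others. Beside the losses given above, Wdr61 in Cct5 KD was lost without Cct5 KD 2 or Cct5 KD Ctr 1 (adjusted p = 0.13 and 0.061), and Wdr77 in Cct5 KD without either knockdown library (0.074 and 0.082). Calls were also gained: the differences of Wdr17 (-0.50, 0.033) and Wdr31 (0.24, 0.032) without Cct7 KD Ctr 2, and Wdr35 in Cct5 KD (-0.095, 0.048) without Cct5 KD Ctr 1.

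With the replicate number as a block, 21 members rose and 36 fell in Cct7 KD, 20 and 34 in Cct5 KD, 23 and 33 in the remainder, and the only member call that changed in these comparisons was the remainder rise of Gnb1l, which was lost (adjusted p = 0.055). Same-numbered libraries did not deviate together (correlations of -0.04, -0.003 and -0.12 in the same order), so the numbers are not taken as pairs. For the remainder, crossing the numbers, a setting chosen after seeing the data, gave 24 and 33. Depth limits calls near 1 FPKM, where a transcript of 1 kb rests on 19 to 55 fragments. The causes of these shifts were not tested.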
